A study of Homo sapiens with 12 samples.

Results

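The mitotic machinery was followed through 49 genes, named from what their products do and not from their values, that carry a human cell from entry into mitosis to the separation of its daughters. All 49 were among the 23346 genes listed by the authors in RPKM, reads scaled to the length of the gene and to the size of the library, in 12 RNA-seq samples. All 49 had a mean of at least 0.1 RPKM over the samples, as did 16236 genes in all, over which every test below was fitted. By role, 7 members act at mitotic entry, 13 on the spindle, 5 in chromosome structure, 9 at the kinetochore or in the chromosomal passenger complex, 8 in the spindle checkpoint and anaphase, and 7 in cytokinesis.

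SW1990 and CFPAC-1 are established lines of human pancreatic adenocarcinoma, so that each stands for 1 tumour grown in culture. Both were stained with GCTM-5, a monoclonal antibody against a glycoprotein complex at the cell surface, and sorted by flow cytometry and gates set so that cells of intermediate staining went to neither population. This gave 4 groups of 3 samples each, SW1990 negative, SW1990 positive, CFPAC-1 negative and CFPAC-1 positive, and no drug or genetic change is named for any of them. The sorts were done 3 times, but whether the cultures were separate is not stated, so p-values measure the spread among these samples.

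Mitotic genes are transcribed late in the cell cycle. In resting and early cycling cells many of them are held down by the DREAM complex, which reaches the promoter through a short element called the CHR, and later the MuvB core of that complex works with MYBL2 and FOXM1 to switch them on, together with NF-Y bound to CCAAT boxes. Levels of transcripts such as *MKI67*, which encodes the Ki-67 antigen, are widely used as measures of dividing cells in pancreatic and other tumours. In RNA from bulk samples, a larger share of cells in mitosis and more RNA in each such cell cannot be told apart.

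The promoters of the members were looked at first, for short elements such as those named above. Any part of these elements in the changes of the members was not tested. RefSeq windows of 300 bases (GRCh38.p14, 250 bases before to 50 after a start of transcription) were given for 41 of 49 members, and for 27305 genes in all. *AURKA*, *TPX2*, *CDCA2*, *BIRC5*, *BUB3*, *TTK*, *UBE2C* and *RACGAP1* had none. The CHR, searched as TTTGAA on both strands, was found for 30 of 41 members (73.2%) and for 18.2% of all genes with a window. The CCAAT box, searched as CCAAT on both strands, was found for 32 members (78.0%) against 39.7% of all genes, and more than 1 of them for 23 members (56.1%) against 12.9%. Both elements stood in the same window for 25 of 41 members against 7.26% of all genes. The variant TTTAAA was present for 14 members (34.1%) against 14.5%, and TTCCCGC or TTGGCGC, 2 forms of the E2F site, for 8 members (19.5%) against 11.0%. Of 46 CHR matches in members, 25 (54.3%) began between 60 bases before and 20 bases after the start, where 23.6% of matches in all windows began. Matches were counted in every window, so a site in overlapping windows of a gene, as in *CDC25C* and *ECT2*, counts in each. These are matches of letters, not sites shown to be bound.

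The stretches that hold both elements are shown for 1 member of each step, in the order of the steps. Only members called higher in CFPAC-1 that had both elements in 1 window could be chosen, and of these the one with the largest CFPAC-1 change was taken, so that members with larger changes but without both elements in 1 window, such as *AURKB* and *ANLN*, are not shown. Each is read on the strand of its gene, 5′ to 3′, with the CHR (TTTGAA or its complement TTCAAA) and the CCAAT box (CCAAT or its complement ATTGG) in capitals.
CDCA3 (chr12:6851276-6851331, minus strand): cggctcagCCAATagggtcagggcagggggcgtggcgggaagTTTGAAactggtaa
KIFC1 (chr6:33391740-33391840, plus strand): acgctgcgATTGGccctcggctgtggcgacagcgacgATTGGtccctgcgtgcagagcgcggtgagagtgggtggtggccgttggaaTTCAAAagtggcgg
MKI67 (chr10:128126435-128126529, minus strand): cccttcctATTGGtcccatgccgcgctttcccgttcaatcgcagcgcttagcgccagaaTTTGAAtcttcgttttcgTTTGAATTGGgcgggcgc
CDCA8 (chr1:37692393-37692510, plus strand): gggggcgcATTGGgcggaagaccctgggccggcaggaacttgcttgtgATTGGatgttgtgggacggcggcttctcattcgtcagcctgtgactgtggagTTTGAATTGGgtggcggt
CDC20 (chr1:43358795-43358938, plus strand): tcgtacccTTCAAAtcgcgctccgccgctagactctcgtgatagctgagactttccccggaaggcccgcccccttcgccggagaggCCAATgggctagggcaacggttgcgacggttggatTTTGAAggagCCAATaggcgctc
ECT2 (chr3:172750603-172750736, plus strand): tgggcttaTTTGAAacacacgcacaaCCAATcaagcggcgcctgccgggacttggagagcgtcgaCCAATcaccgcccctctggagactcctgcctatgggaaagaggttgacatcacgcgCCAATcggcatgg
In *MKI67*, the gene of the Ki-67 antigen, and in *CDCA8*, that of borealin, the CHR and a CCAAT box shared bases in the 1 run of capitals nearest the start. The 30 members with a CHR in a window had medians of 0.78 in CFPAC-1 and 0.20 in SW1990 on the log2 scale (positive over negative cells), and the 11 without one had 0.68 and 0.17, which is given as a description.

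**Figure D1:**
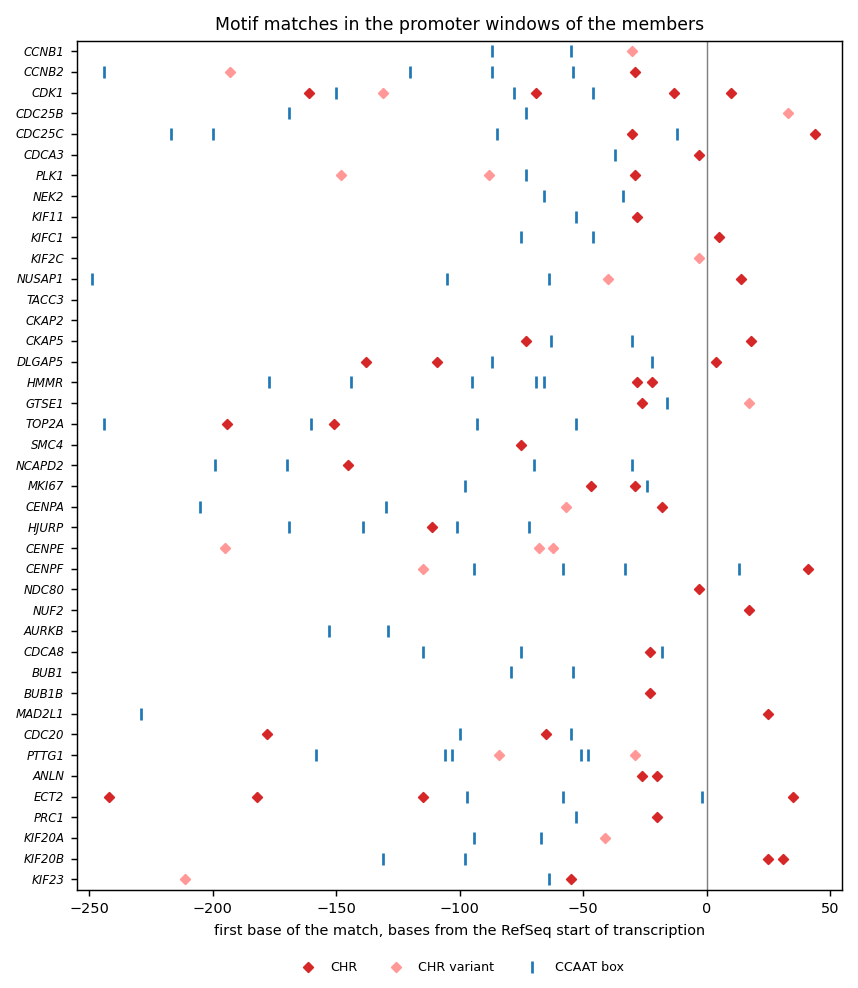
First base of each CHR (TTTGAA), CHR variant (TTTAAA) and CCAAT box match in the promoter windows of the 41 members that had one, in bases from the RefSeq start of transcription, with the windows of a gene laid over each other. Of 46 CHR matches, counted in every window, 25 lie between -60 and 20.

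In CFPAC-1, members of every step were higher in GCTM-5 positive cells. Of 49 members, 45 were called higher (limma, Benjamini-Hochberg adjusted p under 0.05 over 16236 genes) and 0 lower, where 22.3% of all genes were called higher and 14.2% lower. By limma 48 members had an unadjusted p under 0.05 in the higher direction and 0 in the lower. How many of all genes had such a p was not counted, here or below. With voom on recovered reads 45 and 0 members were called, and 3726 and 2490 of all 16236 genes. The log2 fold change, positive over negative, had a median of 0.79 over members and 0.05 over all genes, and ran from 0.24 for *PTTG1* (securin, the inhibitor of separase) to 1.36 for *CDCA3* (a trigger of mitotic entry). In 46 members the 3 positive samples all lay above the 3 negative ones and in 0 all lay below, against 28.1% and 20.4% of all genes. The 4 members not called were *CCNB2*, *CDK1*, *CDC25B* and *PTTG1*.

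Fewer members passed stricter thresholds of over 2-fold and an unadjusted p under 0.01. In CFPAC-1 these were 11 higher and 0 lower, where 5.65% and 4.13% of all genes passed: *CDCA3*, *KIFC1*, *HMMR*, *MKI67*, *CENPE*, *AURKB*, *BIRC5*, *CDCA8*, *MAD2L1*, *CDC20* and *ANLN*. The number was 5 without CFPAC-1 positive replicate 1, 7 without CFPAC-1 negative replicate 1 and 17 without CFPAC-1 positive replicate 3. Over all genes the number higher was 917 in the main fit and 788, 934 and 963 without these samples, in the same order.

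In SW1990, *PLK1* alone was called higher and *CDC25B* alone lower, 1 member in each direction, where 11.3% of all genes were called higher and 16.9% lower. *PLK1* encodes the polo-like kinase that drives entry, spindle assembly and exit, and *CDC25B* a phosphatase that starts the activation of CDK1. The median log2 fold change was 0.20 over members and -0.04 over all genes, and 41 of 49 members had a value above 0. By limma 11 members had an unadjusted p under 0.05 in the higher direction and 1 in the lower. With voom on recovered reads 3 and 1 members were called, and 1976 and 2999 of all 16236 genes. The 3 positive samples all lay above the 3 negative ones in 15 members and all below in 2 (*CDC25B* and *NUSAP1*), against 17.9% and 25.4% of all genes, and overlapped in 32. The upper end of limma's 95% interval stayed below a log2 fold change of 1 for 49 of 49 members, the highest being 0.88 for *ANLN*, and the interval held 0 for 37. With the stricter thresholds 0 members were higher and 1 (*CDC25B*) was lower, where 4.59% and 7.48% of all genes passed, and *CDC25B* no longer passed them without SW1990 negative replicate 3 or SW1990 positive replicate 1. The count called higher was 7 without CFPAC-1 positive replicate 3, 3 without SW1990 negative replicate 1 or CFPAC-1 positive replicate 1, and 2 without SW1990 positive replicate 2, CFPAC-1 negative replicate 2 or CFPAC-1 positive replicate 2. Over all 16236 genes it was 1831 in the main fit and 2198 without CFPAC-1 positive replicate 3. Without each of the others named it was 1547 to 1882.

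The log2 fold change with GCTM-5, positive over negative, was lower in SW1990 than in CFPAC-1 for all 49 members. The test of that difference called 24 of them. For *CDC25B* the change itself was larger in SW1990 and of opposite sign, at -1.08 against 0.26 in CFPAC-1. No member differed the other way: the counts were 24 lower and 0 higher (SW1990 change minus CFPAC-1 change), where 17.8% and 9.16% of all genes were called. By limma 35 members had an unadjusted p under 0.05 in the lower direction and 0 in the higher. With voom on recovered reads 28 members were called lower and 0 higher, and 2873 and 1509 of all 16236 genes. The median difference was -0.61 over members and -0.15 over all genes. With each sample centred on its own median, which brought the latter to 0.00, the median over members was -0.46 and 14 were called. The count was 13 without SW1990 negative replicate 1 or SW1990 positive replicate 2, 15 without SW1990 positive replicate 3 or CFPAC-1 positive replicate 1, 16 without CFPAC-1 negative replicate 1 or 3, and 36 without CFPAC-1 positive replicate 3. Over all genes the count lower was 2887 in the main fit and 3329 without CFPAC-1 positive replicate 3. Without each of the others named it was 2204 to 2561.

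**Figure D2:**
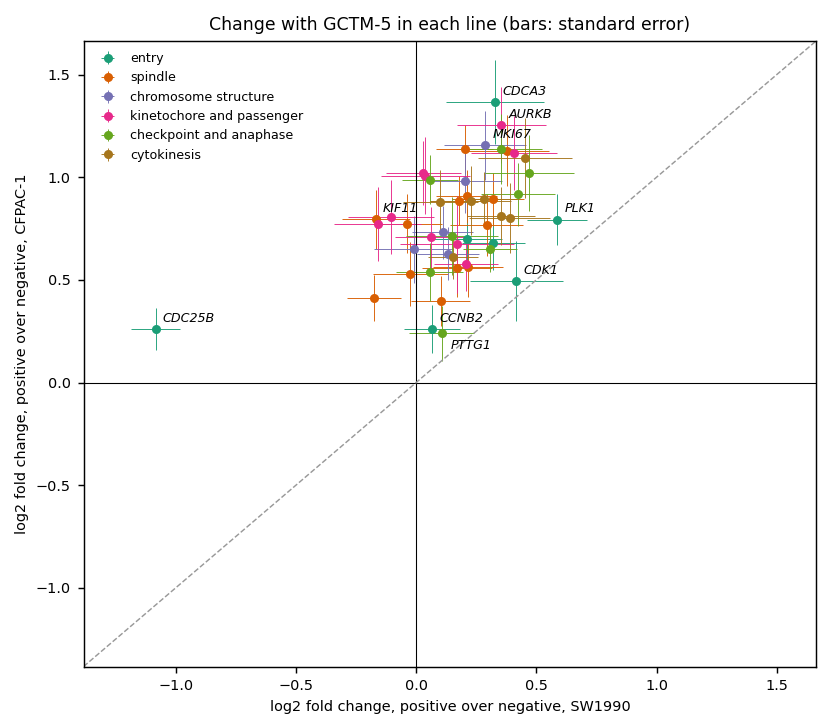
Log2 fold change with GCTM-5 in SW1990 (x axis) and in CFPAC-1 (y axis) for 49 members coloured by step, with standard errors as bars and a dashed line of equal change. All points lie above the dashed line, *CDC25B* stands apart at -1.08 and 0.26, and *PLK1* lies nearest the right edge at 0.59 and 0.79.

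Mitotic entry rests on cyclin B with CDK1 and on the kinases and phosphatases that set it off. In CFPAC-1, 4 of 7 entry genes were called higher, where 22.3% of all genes were, with a median log2 fold change of 0.68. In SW1990 1 was called higher and 1 lower, where 11.3% and 16.9% of all genes were, with a median of 0.32. *CCNB1*, which encodes cyclin B1, stood at 28.02, 29.8 and 22.2 RPKM in SW1990 negative samples and 36.3, 29.7 and 33.7 in positive ones. In CFPAC-1 it stood at 23.9, 28.4 and 26.2 RPKM and 46.4, 43.2 and 36.6. The samples overlapped in SW1990 and were apart in CFPAC-1, where the log2 fold change was 0.68 (SE 0.13, adjusted p = 0.00197), against 0.32 (SE 0.13, adjusted p = 0.0879) in SW1990. Its partner kinase *CDK1* ran at 54.9, 48.9 and 43.4 RPKM in SW1990 negative and 64.7, 67.4 and 63.7 in SW1990 positive samples. In CFPAC-1 it was at 30.1, 41.997 and 36.8 RPKM in negative and 65.1, 56.6 and 35.3 in positive samples. The groups were apart in SW1990, while in CFPAC-1 the third positive sample lay among the negative ones. Neither change of *CDK1* was called, at 0.42 (SE 0.19, adjusted p = 0.138) in SW1990 and 0.49 (SE 0.19, adjusted p = 0.0649) in CFPAC-1. Without CFPAC-1 positive replicate 3 both were, with adjusted p-values of 0.0246 and 0.00202 and log2 fold changes of 0.42 and 0.75. All 4 groups share 1 estimate of the spread of a gene, so CFPAC-1 samples also set the SE in SW1990. The SD of *CDK1* was 5.76 and 1.92 RPKM in SW1990 negative and positive samples, and 5.97 and 15.3 in CFPAC-1 negative and positive ones.

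*CDC25B* moved apart from the rest. It stood at 109, 107 and 131 RPKM in SW1990 negative samples and at 47.7, 60.5 and 55.4 in positive ones, so that every positive sample was far below every negative one. In CFPAC-1 the values were 38.8, 39.3 and 35.6 RPKM and 45.4, 44.99 and 45.9, with the positive samples above. The log2 fold change was -1.08 (SE 0.10, adjusted p = 9.73e-06) in SW1990 and 0.26 (SE 0.10, adjusted p = 0.0652) in CFPAC-1, and the difference between the lines was -1.34 (SE 0.14, adjusted p = 6.29e-05). The CFPAC-1 change was called without SW1990 negative replicate 3 (adjusted p = 0.0453) or SW1990 positive replicate 1 (adjusted p = 0.0419). The 4 windows of *CDC25B* held no TTTGAA, and it was 1 of 11 such members among the 41 with a window. They did hold TTTAAA in 1 window and 2 matches of TTCCCGC in another. Any part of these letters in its change was not tested. Its relative *CDC25C*, active at entry itself, was the 1 entry gene called lower in SW1990 than in CFPAC-1 in both populations, with means of 3.51 ± 0.401 RPKM (SD, n = 3) in SW1990 negative and 6.65 ± 0.732 in CFPAC-1 negative samples.

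*PLK1* was the 1 member called higher in both lines. Its values were 60.7, 55.3 and 47.3 RPKM in SW1990 negative and 88.8, 75.4 and 80.6 in SW1990 positive samples. In CFPAC-1 they were 20.9, 26.1 and 22.9 RPKM and 46.5, 36.4 and 38.7. Positive samples lay above negative ones in both lines, and the levels of SW1990 lay above those of CFPAC-1 throughout. The log2 fold change was 0.59 (SE 0.12, adjusted p = 0.00381) in SW1990 and 0.79 (SE 0.12, adjusted p = 0.000607) in CFPAC-1, and the difference of -0.21 had a 95% interval of -0.59 to 0.18. *CDCA3*, a component of the ubiquitin ligase that removes WEE1 at entry, had the largest CFPAC-1 change of all members. It rose from 6.94, 8.76 and 7.803 RPKM to 27.2, 18.8 and 16.2 there, while SW1990 held 33.4, 30.5 and 22.9 RPKM in negative and 44.7, 31.1 and 33.2 in positive samples. All positive CFPAC-1 samples were above the negative ones, and the first of them was the 1 CFPAC-1 sample to reach the range of SW1990. Its log2 fold change was 1.36 (SE 0.20, adjusted p = 0.000458) in CFPAC-1 and 0.33 (SE 0.20, adjusted p = 0.273) in SW1990.

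**Figure D3:**
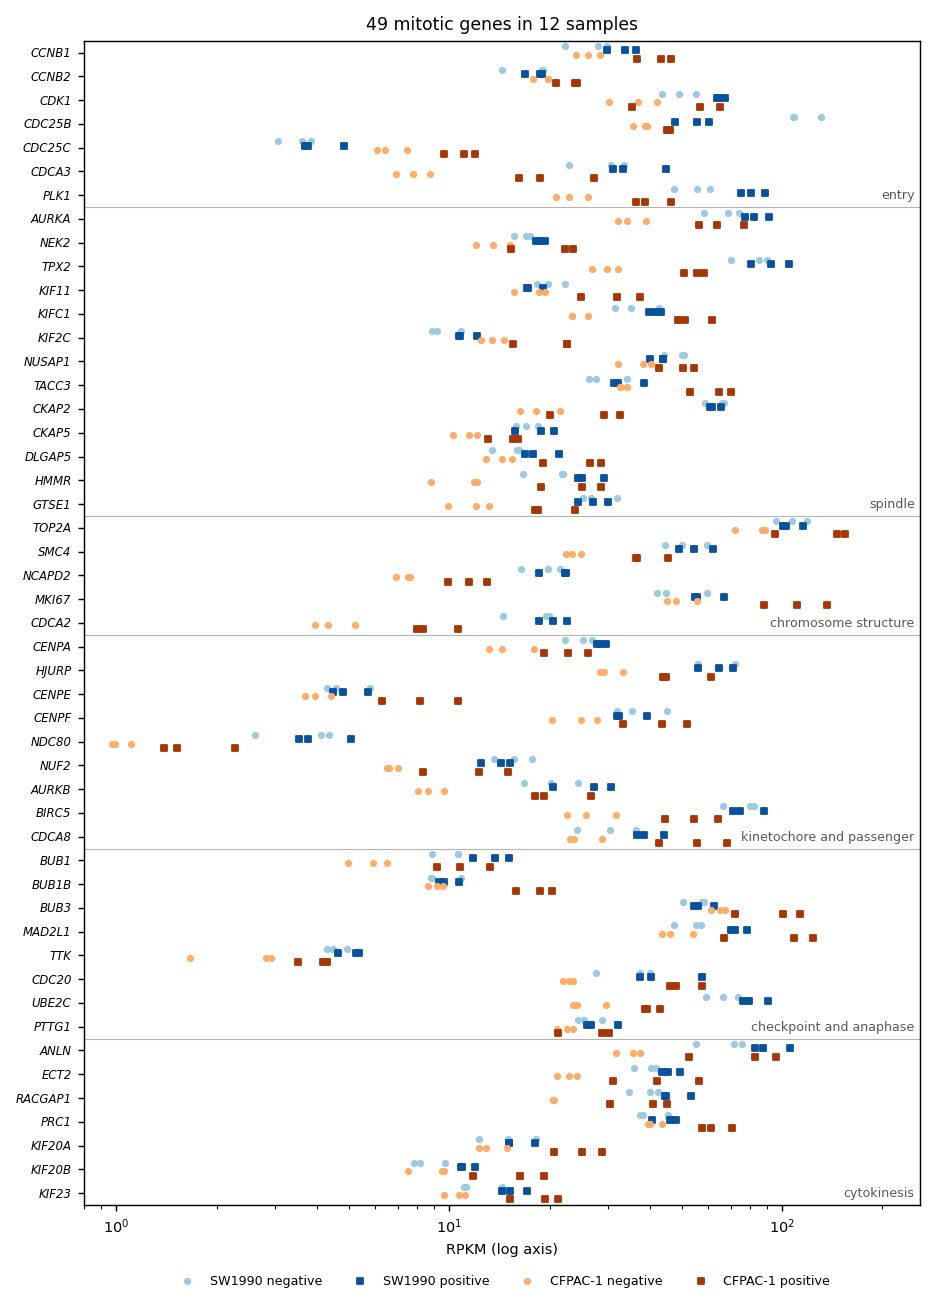
RPKM (log axis) of each of the 49 members in the 12 samples, with negative samples as circles, positive samples as squares, SW1990 in blue and CFPAC-1 in orange, in the order of the steps. In most members the CFPAC-1 negative samples lie furthest to the left.

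The spindle members were called higher in CFPAC-1 without exception, 13 of 13, where 22.3% of all genes were. Their median log2 fold change was 0.77. In SW1990 limma called 0 of 13, where 11.3% of all genes were called higher and 16.9% lower, and the median was 0.18. At an unadjusted p under 0.05 by limma, 2 were higher and 0 lower, which was not counted over all genes. Voom called 0 higher and 0 lower, and 1976 and 2999 of all 16236 genes. *KIFC1*, a minus-end motor that bundles spindle microtubules and clusters extra centrosomes, changed most. It was at 23.4, 26.1 and 23.4 RPKM in CFPAC-1 negative and 61.5, 48.6 and 51.01 in CFPAC-1 positive samples. In SW1990 it was at 42.6, 35.2 and 31.4 RPKM and 43.3, 39.8 and 41.8. The CFPAC-1 groups lay far apart and the positive ones ended above every SW1990 sample, with a log2 fold change of 1.14 (SE 0.12, adjusted p = 5.73e-05), against 0.20 (SE 0.12, adjusted p = 0.243) in SW1990. *HMMR*, whose product helps to organise the spindle poles, had the largest SW1990 change of the step. It went from 21.98, 21.8 and 16.6 RPKM to 29.1, 24.97 and 24.3 in SW1990 and from 8.83, 12.1 and 11.8 RPKM to 28.5, 25.1 and 18.9 in CFPAC-1. Both lines had their positive samples above their negative ones, with 1.13 (SE 0.17, adjusted p = 0.00052) in CFPAC-1 and 0.38 (SE 0.17, adjusted p = 0.129) in SW1990.

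*NUSAP1* and *CKAP5* marked the low end of the step. *NUSAP1*, a microtubule-bundling protein, stood at 50.5, 49.9 and 44.2 RPKM in SW1990 negative and 43.96, 43.7 and 40.2 in SW1990 positive samples. In CFPAC-1 it stood at 32.1, 40.4 and 38.04 RPKM and 54.5, 50.2 and 42.6. The groups were apart in both lines but in opposite order, and the log2 fold change was -0.18 (SE 0.11, adjusted p = 0.2799) in SW1990 and 0.41 (SE 0.11, adjusted p = 0.0133) in CFPAC-1. The CFPAC-1 call was lost without CFPAC-1 negative replicate 1 (adjusted p = 0.0584) or CFPAC-1 positive replicate 1 (adjusted p = 0.0569). *CKAP5*, the polymerase that lengthens microtubules, was at 11.4, 10.2 and 12.1 RPKM in CFPAC-1 negative and 16.1, 15.5 and 13.04 in CFPAC-1 positive samples. SW1990 had 18.4, 16.96 and 15.9 RPKM and 20.7, 15.7 and 18.9, which overlapped. Its log2 fold change was 0.40 (SE 0.12, adjusted p = 0.0248) in CFPAC-1 and 0.10 (SE 0.12, adjusted p = 0.5903) in SW1990. The CFPAC-1 call of *CKAP5* was lost without CFPAC-1 negative replicate 1 or 2 (adjusted p = 0.0532 and 0.0974) or CFPAC-1 positive replicate 1 or 2 (adjusted p = 0.0890 and 0.0659).

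Between these ends, the spindle-pole kinase *AURKA* and its activator *TPX2* had CFPAC-1 log2 fold changes of 0.89 and 0.89, and SW1990 values of 0.32 and 0.18. *KIF11*, the plus-end motor that pushes the poles apart, had 0.79 in CFPAC-1 and -0.17 in SW1990, and the difference was -0.96 (SE 0.20, adjusted p = 0.00433). The depolymerase *KIF2C* was lower in SW1990 than in CFPAC-1 negative cells, at 9.63 ± 1.07 and 13.5 ± 1.06 RPKM (SD, n = 3), a log2 difference of -0.48 (SE 0.14, adjusted p = 0.0102). *CKAP2*, called in CFPAC-1 at 0.53, was the 1 called member there whose samples overlapped. Its call was lost without CFPAC-1 negative replicate 1 or 3 (adjusted p = 0.0810 and 0.0617) or CFPAC-1 positive replicate 1 or 2 (adjusted p = 0.0867 and 0.0644).

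The genes of chromosome structure were all called higher in CFPAC-1, 5 of 5, where 22.3% of all genes were. Their median log2 fold change was 0.73. In SW1990 limma called 0 of 5, where 11.3% of all genes were called higher and 16.9% lower, and the median was 0.13. At an unadjusted p under 0.05 by limma, 0 were higher and 0 lower, which was not counted over all genes. Voom called 0 higher and 0 lower, and 1976 and 2999 of all 16236 genes. *MKI67* encodes the Ki-67 antigen, which coats mitotic chromosomes and keeps them apart. It stood at 45.04, 48.02 and 55.6 RPKM in CFPAC-1 negative and 136, 111 and 88.1 in CFPAC-1 positive samples. In SW1990 it stood at 59.3, 44.7 and 41.9 RPKM and 66.997, 54.5 and 55.3. The negative cells of the lines had like levels, the SW1990 groups overlapped, and the CFPAC-1 positive samples lay above all the others. Its change was 1.15 (SE 0.17, adjusted p = 0.000398) in CFPAC-1 and 0.29 (SE 0.17, adjusted p = 0.242) in SW1990. *TOP2A*, the topoisomerase that untangles sister chromatids, had the highest mean of all members in 3 of the 4 groups. Its values were 119, 107 and 95.9 RPKM in SW1990 negative and 116, 100.4 and 103 in SW1990 positive samples, which overlapped. In CFPAC-1 they were 72.3, 86.9 and 88.7 RPKM and 155, 146 and 95.3, with the third positive sample just above the negative ones, and the log2 fold change was 0.65 (SE 0.16, adjusted p = 0.00976), against -0.01 in SW1990.

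The condensin subunit *NCAPD2*, with the smallest CFPAC-1 change of the step, went from 7.599, 6.91 and 7.54 RPKM to 12.97, 11.5 and 9.91 in CFPAC-1. SW1990 samples held 21.5, 19.8 and 16.4 RPKM and 22.3, 18.5 and 22.2. SW1990 was above CFPAC-1 in both populations, and the change was 0.63 (SE 0.13, adjusted p = 0.00314) in CFPAC-1 and 0.13 (SE 0.13, adjusted p = 0.505) in SW1990. *SMC4*, an ATPase subunit of condensin, had 0.73 in CFPAC-1 and 0.11 in SW1990. *CDCA2*, which brings phosphatase 1 to chromatin at mitotic exit, had 0.98 and 0.20.

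The kinetochore and chromosomal passenger genes tie chromosomes to the spindle and correct wrong attachments. In CFPAC-1, 9 of 9 were called higher, where 22.3% of all genes were, with a median log2 fold change of 0.81. In SW1990 limma called 0 of 9, where 11.3% of all genes were called higher and 16.9% lower. The SW1990 median was 0.06, the lowest of the 6 steps. At an unadjusted p under 0.05 by limma, 1 was higher and 0 lower, which was not counted over all genes. Voom called 0 higher and 0 lower, and 1976 and 2999 of all 16236 genes. *AURKB*, the kinase of the passenger complex, was at 8.602, 9.66 and 8.04 RPKM in CFPAC-1 negative and 26.6, 18.1 and 19.2 in CFPAC-1 positive samples. SW1990 had 24.3, 20.2 and 16.8 RPKM and 30.7, 20.5 and 27.3. The CFPAC-1 positive samples rose into the range of SW1990, whose groups overlapped. Its change was 1.26 (SE 0.18, adjusted p = 0.000413) in CFPAC-1 and 0.35 (SE 0.18, adjusted p = 0.186) in SW1990. Its partner *CDCA8*, borealin, was at 22.97, 28.8 and 23.7 RPKM and 68.1, 55.6 and 42.7 in CFPAC-1. In SW1990 it was at 36.3, 30.4 and 24.1 RPKM in negative and 44.2, 36.5 and 38.4 in positive samples, just apart, which gave the largest SW1990 value of the step, 0.41 (SE 0.18, adjusted p = 0.117). In CFPAC-1 the change was 1.12 (SE 0.18, adjusted p = 0.000688), and *BIRC5*, survivin of the same complex, had 1.02 in CFPAC-1 and 0.03 in SW1990.

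*CENPA*, the histone that marks the centromere, and *NUF2*, a subunit of the complex that grips microtubules, had the lowest log2 fold changes of the step, *CENPA* in CFPAC-1 and *NUF2* in SW1990. *CENPA* was at 13.1, 17.99 and 14.4 RPKM in CFPAC-1 negative and 26.1, 22.7 and 19.3 in CFPAC-1 positive samples. In SW1990 its values were 26.9, 25.1 and 22.2 RPKM and 29.5, 28.3 and 27.8. Both lines were split by population, with 0.58 (SE 0.13, adjusted p = 0.00574) in CFPAC-1 and 0.21 (SE 0.13, adjusted p = 0.288) in SW1990. *NUF2* was at 17.7, 15.7 and 13.6 RPKM and 14.3, 15.2 and 12.5 in SW1990, which overlapped. In CFPAC-1 it was at 6.61, 7.04 and 6.48 RPKM and 14.97, 12.3 and 8.32, with 0.77 (SE 0.18, adjusted p = 0.00635) there and -0.16 (SE 0.18, adjusted p = 0.571) in SW1990. *NDC80*, its partner, had the lowest levels of all members in CFPAC-1, at 1.02 ± 0.0751 and 1.73 ± 0.477 RPKM (SD, n = 3), and between 30 and 220 reads in a sample. Its CFPAC-1 change of 0.67 (SE 0.24, adjusted p = 0.0428) lost the call when any of 7 libraries was left out, with adjusted p-values up to 0.166 without CFPAC-1 positive replicate 1.

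The spindle checkpoint holds anaphase back until every kinetochore is attached, and the anaphase-promoting complex with CDC20 then lets it start. In CFPAC-1, 7 of 8 of these genes were called higher, where 22.3% of all genes were, with a median log2 fold change of 0.81. In SW1990 limma called 0 of 8, where 11.3% of all genes were called higher and 16.9% lower, and the median was 0.23. At an unadjusted p under 0.05 by limma, 3 were higher and 0 lower, which was not counted over all genes. Voom called 2 higher and 0 lower, and 1976 and 2999 of all 16236 genes. *CDC20* had the largest change in CFPAC-1, from 22.9, 23.5 and 22.02 RPKM to 48.05, 46.01 and 57.5. SW1990 had 40.02, 37.3 and 27.6 RPKM and 57.4, 37.3 and 40.3. CFPAC-1 positive samples held far more than any negative one, while SW1990 samples overlapped. The log2 fold change was 1.14 (SE 0.17, adjusted p = 0.000437) in CFPAC-1 and 0.35 (SE 0.17, adjusted p = 0.149) in SW1990. *MAD2L1*, the checkpoint protein that binds CDC20, had the largest SW1990 change of the step. It was at 55.1, 56.99 and 47.4 RPKM in SW1990 negative and 78.3, 70.2 and 72.1 in SW1990 positive samples, clearly apart. In CFPAC-1 it was at 43.4, 53.9 and 45.97 RPKM and 124, 109 and 66.8. The change was 1.02 (SE 0.18, adjusted p = 0.00146) in CFPAC-1 and 0.47 (SE 0.18, adjusted p = 0.0798) in SW1990, and the latter was called without CFPAC-1 positive replicate 3 (adjusted p = 0.00499) or CFPAC-1 positive replicate 1 (adjusted p = 0.0476).

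*BUB1B*, which encodes the checkpoint protein BubR1, rose in CFPAC-1 from 9.18, 9.57 and 8.65 RPKM to 20.3, 15.9 and 18.7. SW1990 samples were at 10.8, 8.83 and 8.88 RPKM and 10.7, 9.305 and 9.62. The negative cells of the lines and the SW1990 positive cells lay in 1 range, and the CFPAC-1 positive samples were above it, with 0.99 (SE 0.12, adjusted p = 0.000117) in CFPAC-1 and 0.06 (SE 0.12, adjusted p = 0.7696) in SW1990. *BUB3*, its partner, stood in CFPAC-1 negative samples at 61.3, 64.9 and 67.2 RPKM and was at 113, 100.2 and 72.2 in positive samples. SW1990 had 58.2, 57.4 and 50.3 RPKM and 62.2, 55.8 and 54.3, which overlapped. The change was 0.54 (SE 0.14, adjusted p = 0.0108) in CFPAC-1 and 0.06 (SE 0.14, adjusted p = 0.818) in SW1990. *PTTG1* had the smallest CFPAC-1 change of all members. It was at 21.1, 22.5 and 23.5 RPKM in CFPAC-1 negative and 28.8, 30.2 and 21.3 in CFPAC-1 positive samples, of which the third lay among the negative ones. SW1990 had 25.4, 28.8 and 24.4 RPKM and 32.2, 26.7 and 25.8. Neither change was called, at 0.24 (SE 0.13, adjusted p = 0.185) in CFPAC-1 and 0.11 (SE 0.13, adjusted p = 0.615) in SW1990, and without CFPAC-1 positive replicate 3 the CFPAC-1 change was called at 0.40 (adjusted p = 0.0162).

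Cytokinesis is carried out by the central spindle, by RhoA switched on at the cortex and by the contractile ring. Its 7 members were all called higher in CFPAC-1, where 22.3% of all genes were, with the highest median of the 6 steps at 0.88. In SW1990 limma called 0 of 7, where 11.3% of all genes were called higher and 16.9% lower, and the median was 0.28. At an unadjusted p under 0.05 by limma, 3 were higher and 0 lower, which was not counted over all genes. Voom called 0 higher and 0 lower, and 1976 and 2999 of all 16236 genes. *ANLN*, anillin of the contractile ring, changed most in both lines. It was at 31.8, 37.5 and 35.7 RPKM in CFPAC-1 negative and 95.6, 82.6 and 52.5 in CFPAC-1 positive samples. In SW1990 it was at 75.5, 71.6 and 55.2 RPKM and 105, 83.1 and 87.5. The groups were apart in both lines, with 1.09 (SE 0.20, adjusted p = 0.00135) in CFPAC-1 and 0.45 (SE 0.20, adjusted p = 0.1103) in SW1990, where it was called without CFPAC-1 positive replicate 3 (adjusted p = 0.0231). *PRC1*, which cross-links the central spindle, had the smallest CFPAC-1 change of the step, from 39.6, 43.7 and 40.1 RPKM to 70.6, 57.3 and 61.3. SW1990 was at 45.4, 37.4 and 38.2 RPKM and 45.97, 40.7 and 47.8, close to the CFPAC-1 negative level. The change of *PRC1* was 0.61 (SE 0.11, adjusted p = 0.00108) in CFPAC-1 and 0.15 (SE 0.11, adjusted p = 0.324) in SW1990.

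*KIF20A*, the motor that carries the passenger complex to the midzone, had the smallest SW1990 change of the step. It was at 18.2, 14.99 and 12.3 RPKM in SW1990 negative and 18.1, 15.1 and 15.2 in SW1990 positive samples, which overlapped. In CFPAC-1 it was at 12.9, 12.3 and 14.9 RPKM and 28.7, 25.1 and 20.7, which were apart. The change was 0.88 (SE 0.16, adjusted p = 0.00127) in CFPAC-1 and 0.10 (SE 0.16, adjusted p = 0.688) in SW1990. The RhoA exchange factor *ECT2*, its activator *RACGAP1* and the motors *KIF20B* and *KIF23* had CFPAC-1 changes of 0.89, 0.89, 0.80 and 0.81.

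Set side by side, the 4 groups differed mainly in 1 of them. CFPAC-1 negative had the lowest mean RPKM for 40 of 49 members, SW1990 negative for 8 and SW1990 positive for 1. The highest mean was in CFPAC-1 positive for 23 members, in SW1990 positive for 22 and in SW1990 negative for 4. How many of all genes had their lowest or highest mean in each group was not counted. Members took 0.413% ± 0.0310 (SD, n = 3) of all reads in CFPAC-1 negative samples, 0.741% ± 0.134 in CFPAC-1 positive, 0.637% ± 0.0702 in SW1990 negative and 0.690% ± 0.0588 in SW1990 positive samples. The mean log2(RPKM + 0.1) over the 49 members was 3.95, 4.16 and 4.09 in CFPAC-1 negative samples. It was 5.08, 4.86 and 4.63 in CFPAC-1 positive, 4.88, 4.74 and 4.55 in SW1990 negative and 5.01, 4.80 and 4.84 in SW1990 positive samples. By this mean the CFPAC-1 negative samples lay below the other 9, and the other 3 groups overlapped.

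Between the lines, 28 members were called higher in SW1990 than in CFPAC-1 negative cells and 2 lower (*CDC25C* and *KIF2C*), where 40.7% and 28.2% of all genes were called. The median log2 difference, SW1990 over CFPAC-1, was 0.60 over members and 0.19 over all genes. With each sample centred on its median the latter was 0.01, and 26 members were called higher and 5 lower. Between the positive cells 16 members were called higher in SW1990 and 16 lower, where 32.9% and 29.3% of all genes were called, and the median was 0.13 over members and 0.06 over all genes. The count called higher was 10 without CFPAC-1 positive replicate 2 or 3. Over all genes it was 5349 in the main fit, 4899 without replicate 2 and 5388 without replicate 3. *CDC25B* was 1.60 in negative and 0.26 in positive cells on this scale, *CDCA2* 1.97 and 1.19, and *CDC25C* -0.90 and -1.39. These comparisons share their samples with those between populations.

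**Figure D4:**
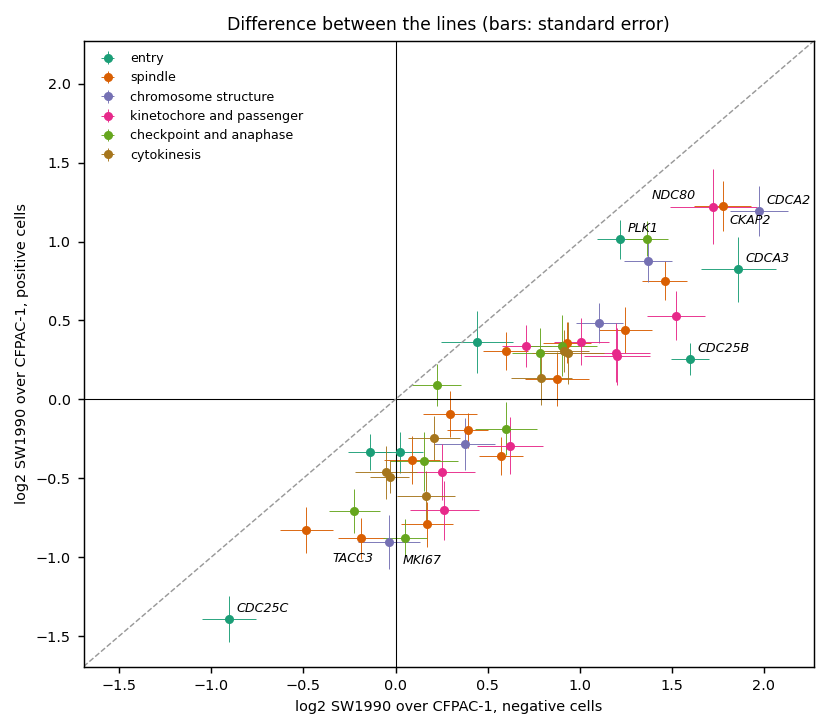
Log2 difference between the lines, SW1990 over CFPAC-1, in negative cells (x axis) and in positive cells (y axis) for 49 members coloured by step, with standard errors as bars. All points lie below the dashed line of equality, which by construction is the same fact as the lower log2 fold change in SW1990. In negative cells 28 members were called higher, where 40.7% of all genes were, against 16 in positive ones, where 32.9% were.

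Within a group the members moved together, so they are not independent measurements. CFPAC-1 positive replicate 1 held the highest value of its group for 44 of 49 members and replicate 3 the lowest for 36. In SW1990 positive, replicate 1 was highest for 43 and replicate 2 lowest for 32, in SW1990 negative replicate 1 highest for 41 and replicate 3 lowest for 43, and in CFPAC-1 negative replicate 2 highest for 35 and replicate 1 lowest for 38. Such orders were not counted over all genes, so they are not shown to be particular to the members. CFPAC-1 positive replicates 1 and 3 were also the deepest and the shallowest libraries, at 26159330 and 9969697 reads, and the part of depth in their values was not tested. The other 10 libraries had 16973802 to 23277139 reads. Behind single values of members stood between 30 reads (*NDC80*) and 44596 (*MKI67*). The SD within groups, pooled over the 4 groups on the log2 scale, had a median of 0.19 over members and 0.21 over all genes, from 0.12 for *CDC25B* to 0.30 for *NDC80*.

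**Figure D5:**
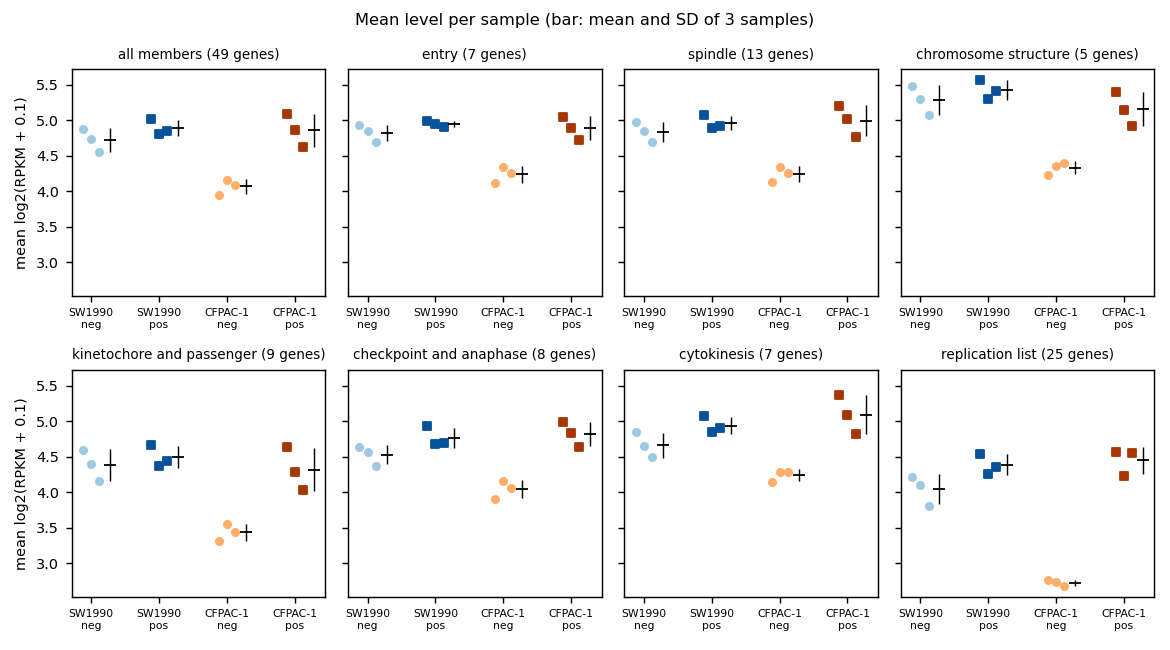
Mean log2(RPKM + 0.1) over the members, over each step and over the replication list in each of the 12 samples (points), with the mean and SD of 3 samples as bars. CFPAC-1 negative samples are lowest in every panel, and the gap to CFPAC-1 positive samples is widest for the 25 replication genes.

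Other mitotic genes outside the 49 were set beside the members, with no test between the lists. Of 65 found in the table, 63 were called higher in CFPAC-1 (all but *WEE1* and *NCAPH2*), 8 higher in SW1990, and 39 lower in the difference. The shares of all genes called were 22.3% higher in CFPAC-1, 11.3% higher in SW1990 and 17.8% lower in the difference. Their median log2 fold changes were 0.88 in CFPAC-1 and 0.19 in SW1990. *CDC25A*, of the same phosphatase family as *CDC25B* and one that also acts at the start of S phase, had the largest CFPAC-1 change, 2.30 (SE 0.21, adjusted p = 2.42e-05). It went from 1.37, 0.938 and 1.26 RPKM to 8.07, 4.96 and 5.87 there and from 7.75, 6.63 and 5.57 RPKM to 13.6, 9.81 and 11.1 in SW1990, where it was called at 0.78 but not without SW1990 negative replicate 3 (adjusted p = 0.0652) or SW1990 positive replicate 1 (adjusted p = 0.0619). *DEPDC1B* had the largest SW1990 change, 0.86 (SE 0.20, adjusted p = 0.00728), and 0.88 in CFPAC-1. The lowest values were those of *FAM64A* in SW1990, at -0.26 (SE 0.18, adjusted p = 0.311), and the condensin II gene *NCAPH2* in CFPAC-1, at -0.05 (SE 0.17, adjusted p = 0.845). TTTGAA stood in a window of 32 of the 49 of these genes that had one (65.3%).

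The subunits of the anaphase-promoting complex, whose activity is switched largely through its activators, were listed apart. Of 14 genes (with the activator *FZR1* and the E2 enzyme *UBE2S*), 5 were called higher in CFPAC-1 and the other 9 were not called, where 22.3% of all genes were called higher, and the median was 0.20. In SW1990 1 was called higher and 1 lower, where 11.3% and 16.9% of all genes were, and the median was 0.08. *UBE2S* rose most, by 1.21 (SE 0.23, adjusted p = 0.00175) in CFPAC-1, where the third positive sample was far above the others, at 43.8, 39.2 and 84.3 RPKM, and it had 0.55 (SE 0.23, adjusted p = 0.0933) in SW1990, which was called without CFPAC-1 positive replicate 3 (adjusted p = 0.00312). *FZR1* had the lowest CFPAC-1 value, -0.20 (SE 0.17, adjusted p = 0.401). *ANAPC5* was lower in SW1990 positive cells, at -0.32 (SE 0.09, adjusted p = 0.02196), and higher in CFPAC-1 positive cells, at 0.45 (SE 0.09, adjusted p = 0.00321). The SW1990 call was lost without SW1990 negative replicate 1 (adjusted p = 0.0865) or SW1990 positive replicate 2 (adjusted p = 0.0812). The other CFPAC-1 calls, named after their values were seen, were *ANAPC2* (0.45), *ANAPC7* (0.91) and *CDC27* (0.55), and the SW1990 call was *ANAPC11* (0.30).

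Of 16 regulators of late cell cycle transcription, 13 were called higher in CFPAC-1, 1 lower and 2 neither way, with a median of 0.62. In SW1990 1 was called higher, with a median of -0.01. The shares of all genes called were 22.3% higher and 14.2% lower in CFPAC-1, and 11.3% higher in SW1990. *MYBL2*, which encodes the B-Myb activator, had 7.21, 9.12 and 8.19 RPKM in CFPAC-1 negative and 42.6, 29.96 and 48.2 in CFPAC-1 positive samples. In SW1990 it had 89.3, 88.6 and 66.6 RPKM and 89.3, 74.3 and 80.2. The SW1990 groups overlapped at a level above all CFPAC-1 samples, and the change was 2.26 (SE 0.17, adjusted p = 1.18e-05) in CFPAC-1 and 0.00 in SW1990. *FOXM1*, named after its values were seen, had 18.05, 21.6 and 20.02 RPKM and 46.9, 34.3 and 40.4 in CFPAC-1 against 179, 159 and 147 RPKM and 186, 147 and 167 in SW1990. Its change was 1.02 (SE 0.13, adjusted p = 0.000175) in CFPAC-1 and 0.04 (SE 0.13, adjusted p = 0.8499) in SW1990. *RBL2*, which encodes the pocket protein p130 of the repressive DREAM complex, was the 1 gene of the list called lower in CFPAC-1. It went from 15.9, 14.9 and 16.5 RPKM to 12.04, 13.6 and 8.75, a change of -0.48 (SE 0.16, adjusted p = 0.03703), and the call was lost without any of 6 libraries, with the smallest change, -0.30 (adjusted p = 0.114), without CFPAC-1 positive replicate 3. *TFDP1*, the partner of E2F proteins, was the 1 called in SW1990, at 0.48 (SE 0.12, adjusted p = 0.00927). *LIN37*, a MuvB subunit read at 24 to 84 reads a sample, had the lowest SW1990 value, -0.60 (SE 0.23, adjusted p = 0.07396), which was called without CFPAC-1 positive replicate 2 (adjusted p = 0.0498).

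DNA replication genes, which act earlier in the cycle, were set beside the members. All 25 were called higher in CFPAC-1 and 9 in SW1990, where 22.3% and 11.3% of all genes were, with medians of 1.75 and 0.41. In CFPAC-1, 24 of 25 passed the stricter thresholds in the higher direction, where 5.65% of all genes did. *CDC6*, which loads the replicative helicase, had 10.8, 10.8 and 11.3 RPKM in CFPAC-1 negative and 58.9, 44.3 and 59.5 in CFPAC-1 positive samples, a change of 2.28 (SE 0.14, adjusted p = 6.78e-06), and 0.81 (SE 0.14, adjusted p = 0.000961) in SW1990. *CDC45*, a part of the moving helicase, had the largest CFPAC-1 change, 2.62 (SE 0.41, adjusted p = 0.000603), on 6 to 99 reads a sample. The lowest values were those of *SLBP* in CFPAC-1, at 0.93 (SE 0.09, adjusted p = 3.04e-05), which encodes the histone mRNA binding protein, and the primase gene *PRIM1* in SW1990, at -0.11 (SE 0.17, adjusted p = 0.671). In the promoter windows of 22 of these genes TTTGAA was found for 1 (4.55%) and a form of the E2F site for 18 (81.8%), against 73.2% and 19.5% of members. No test compares the lists, so the values stand side by side.

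The label of the cells was checked on marker lists. All 6 ductal epithelial markers (*KRT7*, *KRT8*, *KRT18*, *KRT19*, *EPCAM* and *CDH1*) were above 1 RPKM in every sample, but *EPCAM* was at 19.7, 18.004 and 27.2 RPKM and *CDH1* at 10.1, 11.2 and 16.6 in SW1990 negative samples, against 162, 175 and 191 and 95.6, 111 and 101 in SW1990 positive ones. The summed level of the list was 1595 to 1942 RPKM in SW1990 negative, 4360.4 to 4841 in SW1990 positive, 5411 to 6173 in CFPAC-1 negative and 6676 to 8162 in CFPAC-1 positive samples. The 7 fibroblast markers summed to 12.7 to 22.6 RPKM in SW1990 negative and 1.42 to 4.88 elsewhere, in SW1990 negative mostly through *LUM*, while the collagen genes *COL1A2* and *COL3A1* and *DCN* stayed below 0.1 RPKM in every sample. Endothelial markers summed to 14.8 to 18.8 RPKM in SW1990 negative, through *CDH5*, and to 0.751 to 2.05 elsewhere. The 5 leukocyte markers summed to 15.5 to 167 RPKM, mostly through *CD68*, and *PTPRC* and *CD3E* were at 0 or below 0.1 RPKM throughout. Above 1 RPKM in all samples of a group were 2 of the 5 in CFPAC-1 and 1 in SW1990. Of 3 that were fitted, 2 were called lower in SW1990 positive cells and 1 in CFPAC-1 positive cells. The shares of all genes called lower were 16.9% and 14.2%. *CD14* had the lowest log2 fold change, at -1.97 in SW1990 and -1.54 in CFPAC-1. The part of these markers in the changes of the members was not tested.

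For 10 of 49 members an exon overlaps one of another listed gene (GRCh37, GENCODE 44 mapped to that build), and whether the counting used the strand is not stated, so that reads of the pair cannot be told apart. Among them, the exons of *CDCA3* (chr12:6953957-6960456) overlap *GNB3*, those of *PLK1* (chr16:23688977-23701688) *ERN2*, those of *NCAPD2* (chr12:6602522-6641121) *MRPL51* and those of *KIF20A* (chr5:137514408-137523412) *BRD8* and *CDC23* on the opposite strand. *NUSAP1* (chr15:41612992-41673248) and *BUB1B* (chr15:40453224-40513324) overlap *OIP5-AS1* and *PAK6* on their own strand. The others are *CDC25C*, *TACC3*, *SMC4* and *RACGAP1*. *CDC25B* (chr20:3767419-3786768), *MKI67* (chr10:129894923-129924687) and *CDK1* (chr10:62538089-62554610) have no such overlap.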

How the data were processed

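RNA of 12 samples was poly(A) enriched and sequenced. The authors aligned reads to hg19 (GRCh37) and deposited RPKM values made with QuasR, normalized to library size and gene length. The gene annotation, the strand setting of the counting and the treatment of multiply mapping reads are not given in the sources used here. The labels name a strand-specific library kit and the paper's methods another kit.

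Library totals (9969697 to 26159330) were recovered from the deposited RPKM values of single-exon genes, after which all 19654 genes above 0 gave whole reads to within 0.01 of a read. Reads served for depth and for voom. Counting error alone limits a value of 30 reads more than it limits deeper ones.

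The log2 of RPKM plus a pseudocount of 0.1 was fitted for 16236 genes whose RPKM averaged 0.1 or more, with limma 3.58.1 (lmFit, contrasts.fit, eBayes with trend) in R 4.3.3, 4 group means and no further terms. Fold changes are on that scale, which understates the change of low genes. All p-values are 2-sided, adjusted by Benjamini-Hochberg over all genes and called under 0.05. The script was tested on simulated data. Adjusted p-values in the text are limma's. The study's methods name another tool (TCC), which was not used.

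The members, lists, motifs and tests were chosen with earlier results of these data known. Values in every sample are given for the members with the highest and lowest log2 fold change of each step in each line and for CDK1, CCNB1, PLK1, AURKB, BUB1B, TOP2A, MKI67 and PRC1, and from the other lists for the genes with the highest and lowest one. Of the 66 other mitotic genes listed, 1 symbol was not found in the table. Replicate numbers were not used to pair the samples in the main fit. Alternatives were other pseudocounts, filters, scalings, fits and samples left out. Promoter letters were counted in RefSeq windows of GRCh38.p14 with Python 3.11.15, and gene coordinates are those of GRCh37.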

Additional observations from a re-analysis of the deposited data

Results flagged for a closer look

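The change with GCTM-5 differed between the lines by its own test (the interaction in limma, adjusted p under 0.05) in 24 members. Each time the signed log2 fold change was lower in SW1990 than in CFPAC-1. The differences, SW1990 minus CFPAC-1, were -1.34 for *CDC25B* and -1.04 for *CDCA3* among the entry genes. On the spindle they were -0.57 for *AURKA*, -0.71 for *TPX2*, -0.96 for *KIF11*, -0.93 for *KIFC1*, -0.59 for *NUSAP1*, -0.70 for *TACC3*, -0.75 for *HMMR* and -0.81 for *GTSE1*. In chromosome structure they were -0.62 for *SMC4*, -0.87 for *MKI67* and -0.78 for *CDCA2*. At the kinetochore and in the passenger complex they were -0.64 for *HJURP*, -0.97 for *CENPE*, -0.91 for *CENPF*, -0.93 for *NUF2*, -0.90 for *AURKB* and -0.99 for *BIRC5*. In the checkpoint and in anaphase they were -0.93 for *BUB1B* and -0.78 for *CDC20*, and in cytokinesis -0.61 for *RACGAP1*, -0.46 for *PRC1* and -0.78 for *KIF20A*. Of the 24, 11 were called under all 22 settings that gave a value: *CDC25B*, *TPX2*, *KIF11*, *KIFC1*, *TACC3*, *GTSE1*, *MKI67*, *CENPE*, *CENPF*, *BIRC5* and *BUB1B*. The other 13 lost the call under at least 1 of them. *CDC25B* was the 1 of the 24 whose own change was called in SW1990, and it was in the opposite direction to its CFPAC-1 value.

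Among the named genes of the other lists, the difference was called for 9, at -1.52 for *CDC25A*, -1.23 for *FAM64A*, -0.78 for *ANAPC5*, -2.26 for *MYBL2*, -0.85 for *TFDP1*, -1.47 for *CDC6*, -2.27 for *CDC45*, -1.47 for *PRIM1* and -0.75 for *SLBP*. Each of the 9 also had a lower signed log2 fold change in SW1990, and *ANAPC5* was called in opposite directions in the lines.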

How the results depend on the processing

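Over the alternatives 0 results of the members changed direction past the threshold. In CFPAC-1 between 38 and 47 members were called higher (38 with each line fitted alone) and 36 were called under all 23 settings, and in SW1990 *PLK1* and *CDC25B* were called under all 23. Members called higher in SW1990 (1) became 4 with median centring, 2 with quantile normalization, 4 with each line fitted alone, 3 with voom on recovered reads, and 1 to 7 with 1 sample left out. Members called lower in the difference between lines (24) became 14 with median centring and 13 to 36 with 1 sample left out. Over all genes, with 1 sample left out, genes called higher in SW1990 ran from 1432 to 2198 (1831 in the main fit). They were 2084 with median centring, 2063 with quantile normalization, 1738 with each line fitted alone and 1976 with voom. With 1 sample left out, genes called lower in the difference ran from 2204 to 3329 (2887 in the main fit). Members called lower in SW1990 against CFPAC-1 negative cells (2) became 5 with median centring. Members called higher in SW1990 against CFPAC-1 positive cells (16) became 10 to 21 with 1 sample left out. The median log2 difference over members ran from -0.07 to 0.26. Over all genes the number called higher there was 5349 in the main fit and ran from 4820 to 5388. Over all genes, median centring turned 3622 higher and 2307 lower calls in CFPAC-1 into 2795 and 3056, 1487 and 2887 in the difference into 1987 and 1988, and 6610 and 4571 in SW1990 against CFPAC-1 negative cells into 5574 and 5520. In CFPAC-1, 7 members rather than 11 were past 2-fold and an unadjusted p under 0.01 with median centring or quantile normalization. Over all genes the number higher was 917 in the main fit, 724 with median centring and 820 with quantile normalization.

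Deviations from the group means had correlations of -0.06 to 0.19 between samples with the same number. Between samples of a line with unlike numbers they were -0.25 to 0.16. With 3 samples in a group, such values cannot decide whether the numbers pair the samples. With the replicate block 45 members were called higher in CFPAC-1, 1 higher and 1 lower in SW1990, and 23 lower in the difference. No contrast between the lines could be had under the block or with each line fitted alone. The shallowest library, CFPAC-1 positive replicate 3, has the least precise values, down to 30 reads for *NDC80*.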
